A study of Mus musculus with 12 samples.

Results

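The genes described here are 9 genes of retinoid metabolism and retinol binding, Lrat, Rbp7, Dhrs9, Rdh10, Rdh11, Retsat, Aldh1a1, Aldh1a3 and Rarb, out of 55471 genes listed for mouse colonic crypts. They were picked by symbol, and the set was selected on measured values: Dhrs9 and Lrat for a lower level in CBPAAp53-floxed than in CBPWTp53-floxed crypts, and Rbp7 for a higher level after p53 deletion. The differences from CBPWTp53-floxed crypts are therefore given as a description, with no test. Crypts were released with EDTA from the colon of female C57BL/6J mice aged 8 weeks, and mRNA of 12 mice was sequenced, 1 library per mouse and 3 mice in each of 4 groups. CBPWTp53-floxed mice carry wild-type CBP and floxed Trp53 alleles without the deletion. CBPAAp53-floxed mice carry the same floxed alleles and a knock-in of Crebbp in which phosphorylated serines of CBP are replaced with alanine in every cell. CBPWTp53ΔIEC and CBPAAp53ΔIEC mice carry Villin-Cre in addition, which deletes Trp53 in intestinal epithelial cells only. The knock-in was made in mouse embryonic stem cells, for which the methods of the study name different strains in different places, and backcrossed to C57BL/6.

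Retinoids are vitamin A and its derivatives. Cells take up retinol, hold it on small binding proteins or store it as retinyl ester, and oxidise it to retinal and then to retinoic acid, which acts through nuclear receptors on target genes. In the gut, this pathway is known for its part in epithelial differentiation and in shaping mucosal immune cells. Among the 9 genes, Lrat makes retinyl esters and Rbp7 binds retinol in the cytoplasm. Dhrs9 and Rdh10 oxidise retinol to retinal, and Rdh11 acts mainly in the reverse direction on retinal. Retsat saturates retinol to dihydroretinol, Aldh1a1 and Aldh1a3 oxidise retinal to retinoic acid, and Rarb is a retinoic acid receptor that retinoic acid itself induces.

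Libraries held 11177430 to 18029125 counted reads. Trp53, read first as a check of the labels, lay at 39.3 to 52.6 CPM (counts scaled to library size with edgeR's TMM factors) in the 6 p53-floxed libraries and at 5.01 to 10.4 CPM in the 6 p53ΔIEC libraries. Crebbp lay at 38.1 to 57.6 CPM in all 12. Summed TPM (scaled for gene length and library size) of 11 epithelial markers was 17500.1 to 25178. It was 5.26 to 11.1 for 12 leukocyte markers, 2.75 to 7.00 for 12 fibroblast and smooth muscle markers and 1.27 to 2.14 for 8 endothelial markers. Surface colonocyte markers summed to 17070.2 to 31420.6 TPM. CBPWTp53ΔIEC replicate 1 stood apart, with Pearson's r of 0.952 and 0.953 to its group mates where those correlated at 0.990. It and CBPAAp53ΔIEC replicate 3 had the lowest proliferation marker sums of the p53ΔIEC libraries, 328 and 237 TPM against 560 to 727 TPM. They also had the highest small-intestinal enterocyte marker sums of all libraries, 7510 and 4575 TPM against 834 to 3485 TPM. Several results that rest on them are therefore given with and without them. In RNA from whole crypts, fewer cells of a type and less RNA per cell cannot be told apart.

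Promoter sequences of the 3 genes that chose the set are shown so that their proximal DNA can be compared with the Rarb promoter, which holds a known type of retinoic acid response element. RefSeq gave a promoter of 300 bases (250 before to 50 after the start, GRCm38.p6) for 7 of the 9 genes, with 2 alternative starts each for Rdh11 and Aldh1a1, so that 9 windows were searched. Both strands were searched for direct repeats of a half-site, with a gap of 1, 2 or 5 bases between the copies. The half-site most often described for retinoid receptors is AGGTCA, and it was also searched for alone. A first variant allowed within the repeats was GGGTCA. Another variant that the search accepted in the repeats was AGTTCA. The last variant accepted at either position of a repeat was GGTTCA. Further searches were for the TATA box, spelled as TATAAA, and for the p53 half-site. Capitals mark matches.
Rarb, chr14:16575493-16575549, minus strand: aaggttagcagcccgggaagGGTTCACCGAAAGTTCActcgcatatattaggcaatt
Dhrs9, chr2:69380212-69380511, plus strand: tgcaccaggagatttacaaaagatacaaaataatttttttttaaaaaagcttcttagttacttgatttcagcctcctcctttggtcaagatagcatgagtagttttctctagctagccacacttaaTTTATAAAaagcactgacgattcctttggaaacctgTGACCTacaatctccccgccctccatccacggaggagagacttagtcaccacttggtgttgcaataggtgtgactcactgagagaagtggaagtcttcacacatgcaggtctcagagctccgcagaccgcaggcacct
Lrat, chr3:82903925-82904224, minus strand: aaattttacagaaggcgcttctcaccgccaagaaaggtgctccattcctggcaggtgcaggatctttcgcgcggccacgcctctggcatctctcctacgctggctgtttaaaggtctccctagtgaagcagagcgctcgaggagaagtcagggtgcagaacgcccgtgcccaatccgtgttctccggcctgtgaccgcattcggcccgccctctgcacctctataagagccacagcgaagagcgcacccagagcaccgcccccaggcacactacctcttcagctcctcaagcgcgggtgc
Rbp7, chr4:149454919-149455218, minus strand: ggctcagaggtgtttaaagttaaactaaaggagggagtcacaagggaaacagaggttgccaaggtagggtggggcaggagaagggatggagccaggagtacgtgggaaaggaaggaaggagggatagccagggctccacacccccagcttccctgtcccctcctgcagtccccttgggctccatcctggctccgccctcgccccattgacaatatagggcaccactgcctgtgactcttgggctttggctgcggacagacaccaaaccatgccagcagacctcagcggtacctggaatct
Of the 7 genes, Rarb alone matched a repeat, with a spacing of 5 bases, which 0.0974% of 32851 promoters of this length hold. Dhrs9 had AGGTCA on the reverse strand and Rdh11 had it in 1 of its 2 windows, and 16.3% of promoters held it on one strand or the other. Dhrs9 also had TATAAA on both strands in overlapping positions, 122 and 124 bases before the start. Retsat had it 30 bases before the start, and 13.6% of promoters held TATAAA on at least 1 strand. Neither Lrat nor Rbp7 held any of these motifs, and no p53 half-site (8.36% of promoters) lay in any of the 9 windows. No gene of the set lies on chromosome 11 or 16, which carry Trp53 and Crebbp.

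Levels between genes were compared in TPM. Aldh1a1 was the highest of the 9 with a mean of 118 TPM over the 12 libraries (89.3 to 152), followed by Retsat at 81.5 TPM (57.0 to 93.7). Rdh11 averaged 24.3 TPM and Rdh10 17.4 TPM. Lrat and Dhrs9 were lower and close to each other, at 6.92 and 6.79 TPM. Rbp7 averaged 2.07 TPM, Aldh1a3 0.365 TPM and Rarb 0.0822 TPM. Of the 9, only Rarb failed the filter on low counts, with 0 to 8 reads per library, and it was not tested. Exons of Rarb overlap those of Top2b on the other strand and 34.1% of its 50-base stretches occur in transcripts of other genes, so even these reads are uncertain. Among 62 other genes of the pathway, the highest were Adh1 (365 TPM), an alcohol dehydrogenase that oxidises retinol, and Isx (187.9 TPM), a repressor of carotenoid cleavage. Next came the nuclear receptor Ppard (65.6 TPM), the oxidoreductases Rdh14 (65.1 TPM) and Dhrs4 (60.7 TPM), the retinoid receptor partner Rxra (60.2 TPM), the acyltransferase Dgat1 (56.2 TPM), the retinal reductase Dhrs3 (38.8 TPM), Rxrb (38.5 TPM) and the corepressor Nrip1 (25.1 TPM). Of these 10, Adh1 alone passed in a comparison.

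**Figure D1:**
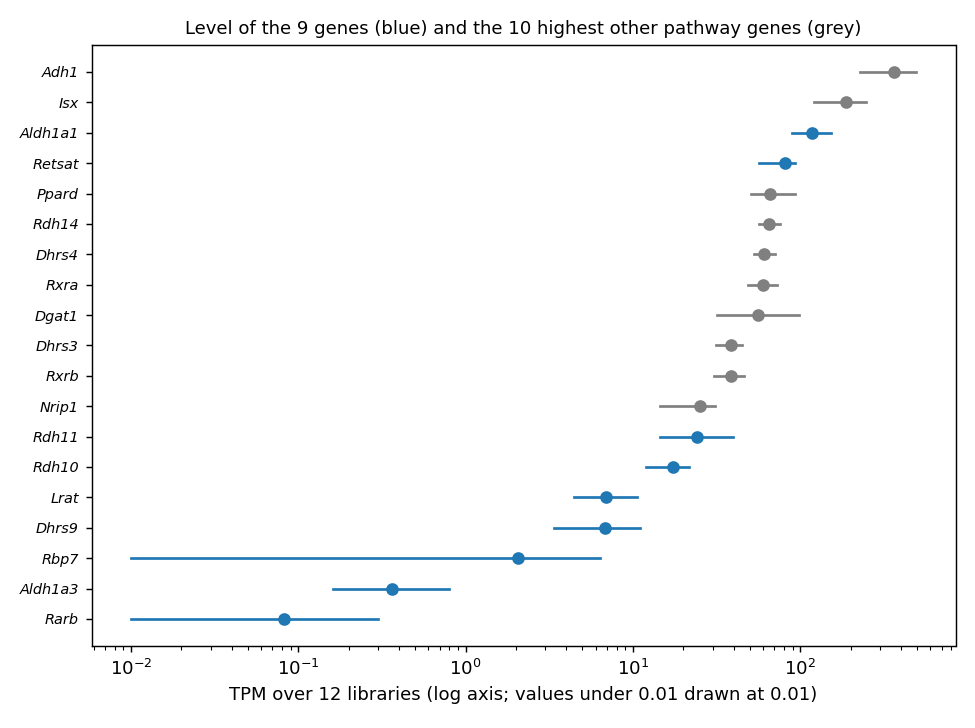
Mean TPM (points) and range (lines) over 12 libraries for the 9 genes in blue and the 10 highest other pathway genes in grey, on a log axis. Aldh1a1 at 118 TPM lies below Adh1 and Isx, and Rarb at 0.0822 TPM is the lowest.

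Lrat (ENSMUSG00000028003, GRCm38 chr3:82892579-82903973, minus strand), which esterifies retinol for storage, was highest in CBPWTp53-floxed crypts and lower in the other 3 groups. It measured 22.2, 20.7 and 18.5 CPM in CBPWTp53-floxed, 11.6, 10.0 and 13.1 CPM in CBPAAp53-floxed, 11.4, 12.9 and 10.8 CPM in CBPWTp53ΔIEC and 12.1, 13.9 and 16.7 CPM in CBPAAp53ΔIEC crypts. The CBPWTp53-floxed libraries overlapped no library of the other groups, and those 3 groups overlapped each other. The log2 difference from CBPWTp53-floxed was -0.82 ± 0.15 (SE) in CBPAAp53-floxed and -0.80 ± 0.15 in CBPWTp53ΔIEC crypts, without a test. Both comparisons share the CBPWTp53-floxed libraries. CBPAAp53ΔIEC differed from CBPAAp53-floxed by 0.30 ± 0.15, and by 0.17 to 0.41 with 1 library left out. That difference is also without a test because the low CBPAAp53-floxed level chose the gene.

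Dhrs9 (ENSMUSG00000027068, GRCm38 chr2:69380445-69404533, plus strand), a short-chain dehydrogenase that oxidises retinol, showed its lowest levels in CBPAAp53-floxed crypts. It measured 18.5, 16.8 and 14.2 CPM in CBPWTp53-floxed, 8.84, 6.08 and 8.38 CPM in CBPAAp53-floxed, 9.34, 11.8 and 13.7 CPM in CBPWTp53ΔIEC and 8.43, 11.2 and 8.22 CPM in CBPAAp53ΔIEC crypts. CBPWTp53-floxed lay above every other group on this scale, and the remaining neighbours in the order overlapped. On the TPM scale, CBPWTp53-floxed (8.92 to 11.0) and CBPWTp53ΔIEC (4.63 to 9.30) overlapped. Its log2 difference from CBPWTp53-floxed was -1.09 ± 0.20 in CBPAAp53-floxed and -0.50 ± 0.19 in CBPWTp53ΔIEC, the latter -0.38 without CBPWTp53ΔIEC replicate 1. CBPAAp53ΔIEC differed from CBPAAp53-floxed by 0.26 ± 0.20, untested for the same reason as in Lrat.

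Rbp7 (ENSMUSG00000028996, GRCm38 chr4:149449687-149454978, minus strand), a cytoplasmic retinol-binding protein, had at most 3 reads in a p53-floxed library and at least 6 in every p53ΔIEC library. It had 1, 1 and 1 reads in CBPWTp53-floxed, 1, 3 and 0 in CBPAAp53-floxed, 23, 24 and 13 in CBPWTp53ΔIEC and 13, 11 and 6 in CBPAAp53ΔIEC crypts. Summed reads per library size were 22.3 times as high in CBPWTp53ΔIEC as in CBPWTp53-floxed (60 against 3 reads, exact 95% interval 7.26 to 111) and 7.43 times as high in CBPAAp53ΔIEC as in CBPAAp53-floxed (30 against 4, 2.62 to 29.0). Of those 4 reads, 3 came from CBPAAp53-floxed replicate 2, and without it the second ratio was 17.2 (30 against 1, 2.86 to 702). That library was left out after seeing the counts, and leaving out the highest of the low group can only raise the ratio. The intervals cover counting error only and are a description, since p53 deletion chose the gene. Between the p53ΔIEC groups the ratio of CBPAAp53ΔIEC to CBPWTp53ΔIEC was 0.486 (0.302 to 0.765), and their CPM overlapped (0.414 to 0.906 and 0.870 to 2.15) while their TPM did not (1.47 to 3.36 and 3.53 to 6.35). The log2 difference was -1.07 ± 0.45, -0.76 without CBPWTp53ΔIEC replicate 1 and -0.49 without both libraries that stood apart in their markers, with no test because these libraries chose the gene.

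**Figure D2:**
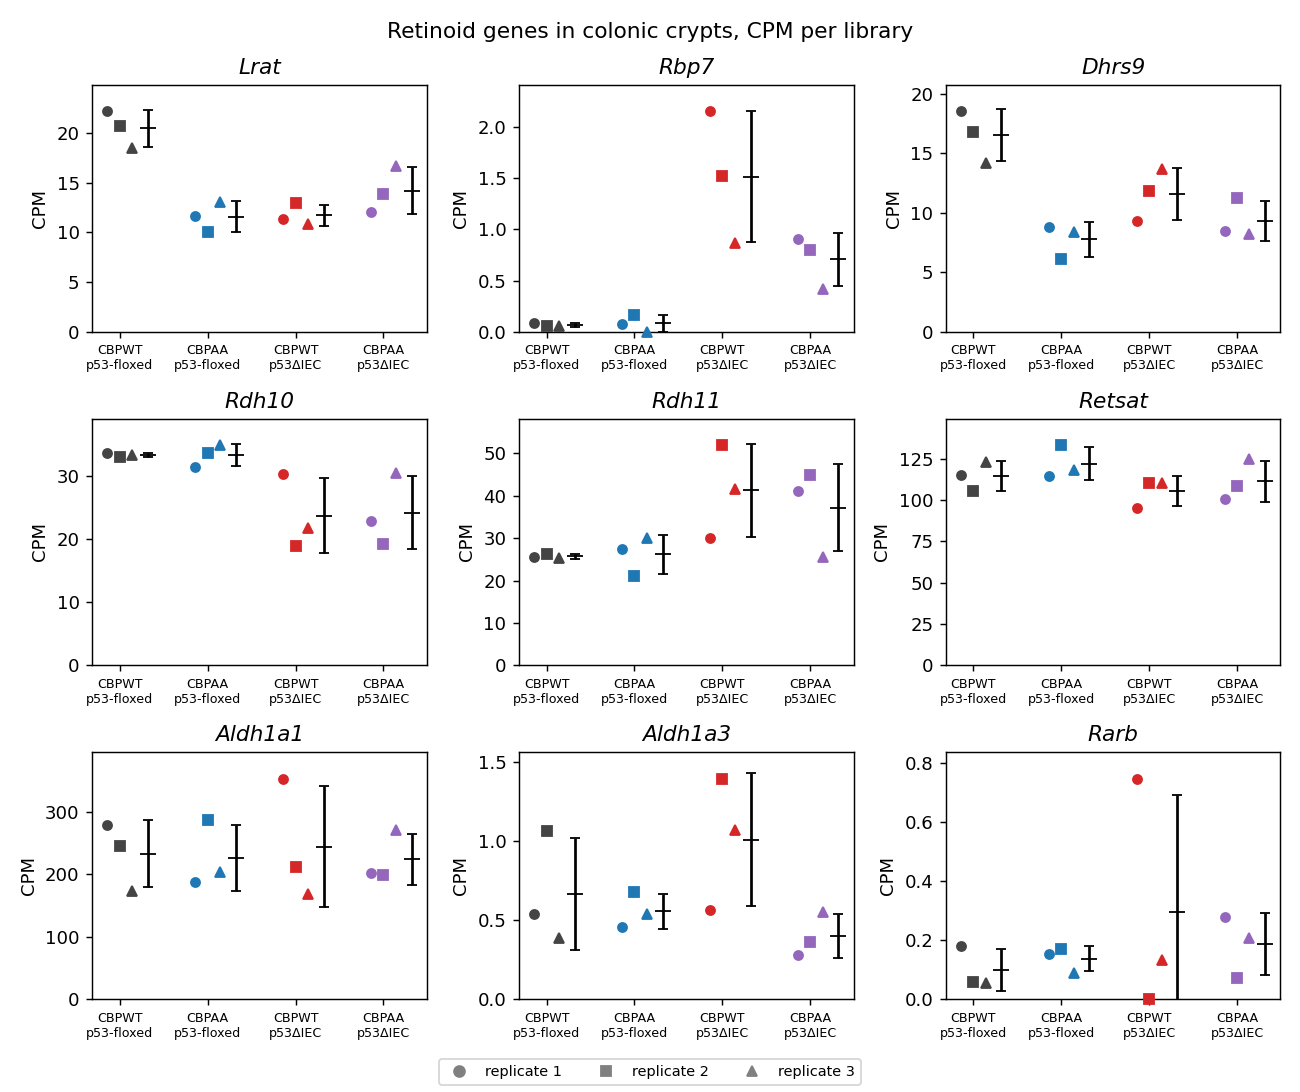
CPM of each of the 9 genes in 12 libraries by group (points, shape by replicate), with mean and SD (bars) of 3 mice. Lrat and Dhrs9 are highest in CBPWTp53-floxed crypts, and Rbp7 is at most 0.169 CPM in p53-floxed and at least 0.414 CPM in p53ΔIEC crypts.

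Rdh10 (GRCm38 chr1:16105774-16133734, plus strand) and Rdh11 (chr12:79174337-79192293, minus strand), a retinol oxidising and a mainly retinal reducing enzyme, had opposite differences in p53ΔIEC crypts, with Rdh10 lower and Rdh11 higher. Rdh10 lay at 33.6, 33.1 and 33.4 CPM in CBPWTp53-floxed and 31.4, 33.7 and 34.9 CPM in CBPAAp53-floxed crypts. In CBPWTp53ΔIEC it lay at 30.3, 19.0 and 21.8 CPM and in CBPAAp53ΔIEC at 22.8, 19.3 and 30.5 CPM, so on the CPM scale the p53ΔIEC groups lay below both p53-floxed groups with 1 library of each close to them. In TPM, CBPAAp53ΔIEC replicate 3 (18.7) lay above CBPAAp53-floxed replicate 3 (18.2). Rdh11 lay at 25.6, 26.4 and 25.2 CPM in CBPWTp53-floxed and 27.3, 21.2 and 30.1 CPM in CBPAAp53-floxed crypts. It reached 30.2, 52.0 and 41.6 CPM in CBPWTp53ΔIEC and 41.1, 44.9 and 25.6 CPM in CBPAAp53ΔIEC crypts. In TPM, Rdh11 in CBPWTp53ΔIEC replicate 1 (18.5) lay below the CBPWTp53-floxed libraries (18.8, 19.8 and 19.7). The libraries close to the p53-floxed level in both genes were CBPWTp53ΔIEC replicate 1 and CBPAAp53ΔIEC replicate 3, the same that had low proliferation and high small-intestinal marker sums, and the part of those markers in the result was not tested.

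Relative to CBPWTp53-floxed, the log2 difference in CBPWTp53ΔIEC was -0.50 ± 0.18 for Rdh10 and 0.68 ± 0.22 for Rdh11, untested, and -0.71 and 0.86 without CBPWTp53ΔIEC replicate 1. In CBPAAp53ΔIEC against CBPAAp53-floxed it was -0.46 ± 0.18 for Rdh10 (adjusted p = 0.350, edgeR) and 0.51 ± 0.22 for Rdh11 (adjusted p = 0.385, edgeR). With both libraries left out, a choice made after seeing the data, the values were -0.67 for Rdh10 (adjusted p = 0.00346, edgeR) and 0.72 for Rdh11 (adjusted p = 0.00721, edgeR). In that comparison 8.12% of all genes tested then passed instead of 0.0274%. These adjusted p-values cannot decide whether the genes differ, since the libraries left out were those closest to the p53-floxed level in both genes. CBPWTp53ΔIEC replicate 1 is also not part of this comparison and acts only through the fit shared by all groups. Leaving out CBPAAp53ΔIEC replicate 3 alone, which is part of it, gave adjusted p = 0.0681 and 0.0802 (edgeR), above the cutoff. With any 1 library left out, the log2 difference ran from -0.66 to -0.32 for Rdh10 and from 0.35 to 0.72 for Rdh11. Leaving out CBPWTp53ΔIEC replicate 1 alone was 1 of these settings, and its adjusted p-values are not given here.

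**Figure D3:**
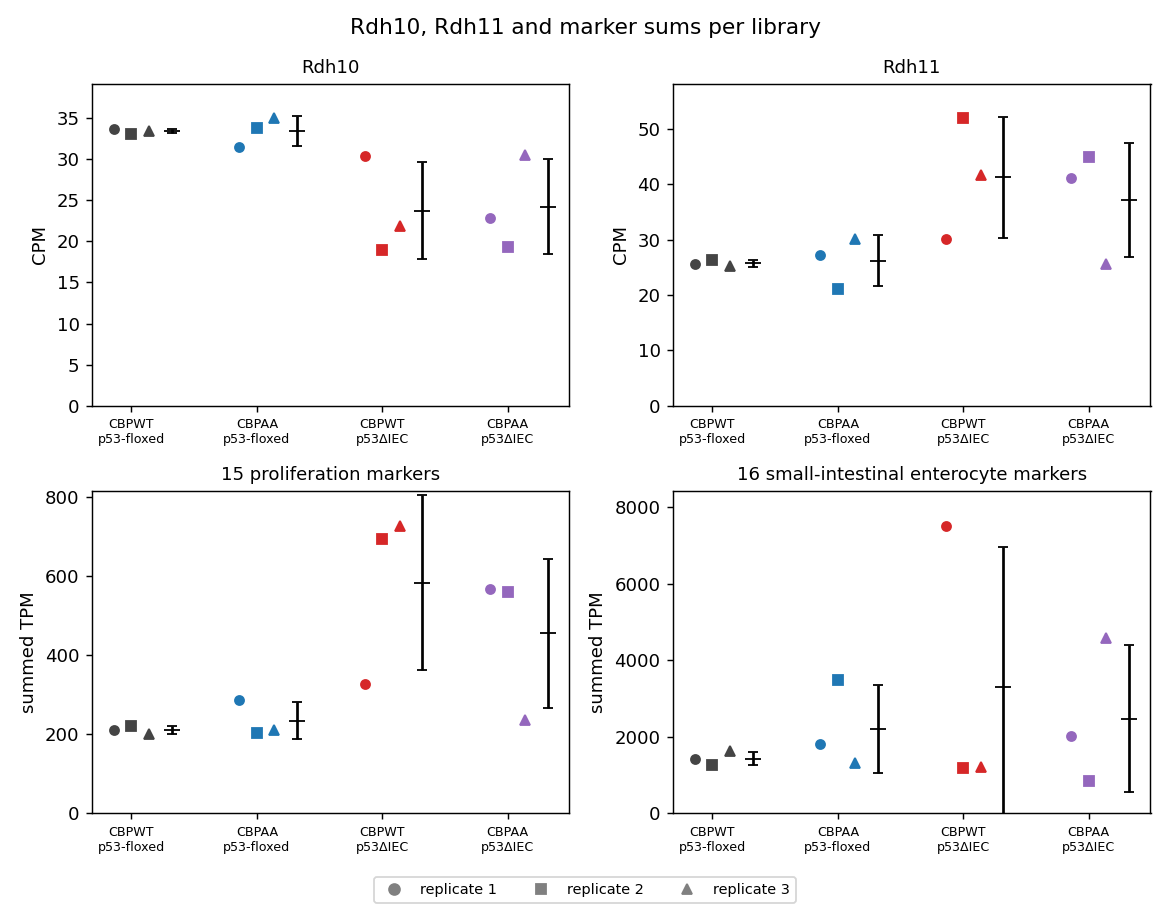
Rdh10 and Rdh11 in CPM and summed TPM of 15 proliferation and 16 small-intestinal enterocyte markers, per library by group, with mean and SD (bars) of 3 mice. CBPWTp53ΔIEC replicate 1 and CBPAAp53ΔIEC replicate 3 have 30.3 and 30.5 CPM of Rdh10, near the p53-floxed libraries.

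Retsat, Aldh1a1 and Aldh1a3 passed no test they entered. Retsat ranged from 95.0 to 133 CPM, with group means of 105 to 122 CPM. Aldh1a1 ranged from 168 to 353 CPM, and its SD within groups (40.7 to 96.9 CPM) was larger than the range of the group means, 224 to 244 CPM. The highest SD was that of CBPWTp53ΔIEC, where replicate 1 lay at 353 CPM. Aldh1a1 shares 3.06% of its 50-base stretches with other genes, all with Aldh1a7, and Retsat 14.1% with an unconfirmed gene model on the other strand. Aldh1a3 had 4 to 22 reads. It lay at 0.560, 1.39 and 1.07 CPM in CBPWTp53ΔIEC and at 0.279, 0.362 and 0.553 CPM in CBPAAp53ΔIEC crypts. These did not overlap in CPM, with a log2 difference of -1.36 ± 0.48 (adjusted p = 0.985, edgeR), and of -1.67 to -1.06 with 1 library left out. The nearest libraries, CBPWTp53ΔIEC replicate 1 and CBPAAp53ΔIEC replicate 3, had 6 and 8 reads. In TPM the 2 groups overlapped, since the former (0.258) lay below the latter (0.305).

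Against the background of all genes, only the 5 members in the fit that the rule did not single out, Rdh10, Rdh11, Retsat, Aldh1a1 and Aldh1a3, are counted here. In CBPAAp53-floxed vs. CBPWTp53-floxed, 0% of 14610 genes passed the cutoff of adjusted p under 0.05 and log2 fold change over 0.5 in size (edgeR; 1174 at an unadjusted p under 0.05, and 33 passed in DESeq2), and CPM of the groups did not overlap for 19.4% of genes and for 0 of the 5. In CBPWTp53ΔIEC vs. CBPWTp53-floxed, 3.15% passed, and CPM did not overlap for 30.8% of genes and 2 of the 5, Rdh10 and Rdh11. In CBPAAp53ΔIEC vs. CBPWTp53ΔIEC, 0.00684% passed, and CPM did not overlap for 9.26% of genes and 1 of the 5, Aldh1a3. None of the 5 passed edgeR's test or DESeq2's there, and DESeq2 called 1 of all genes. At an unadjusted p under 0.05 was 1 of the 5, beside 521 of all 14610 genes. In CBPAAp53ΔIEC vs. CBPAAp53-floxed, 0.0274% passed, and CPM did not overlap for 15.0% of genes and 1 of the 5, Rdh10. None of the 5 passed edgeR's test or DESeq2's here either, and DESeq2 called 73 of all genes. At an unadjusted p under 0.05 were 2 of the 5, beside 1841 of all 14610 genes. On the TPM scale, Rdh11 overlapped in the second comparison, Aldh1a3 in the third and Rdh10 in the fourth. The first of these comparisons and the second share their CBPWTp53-floxed libraries.

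**Figure D4:**
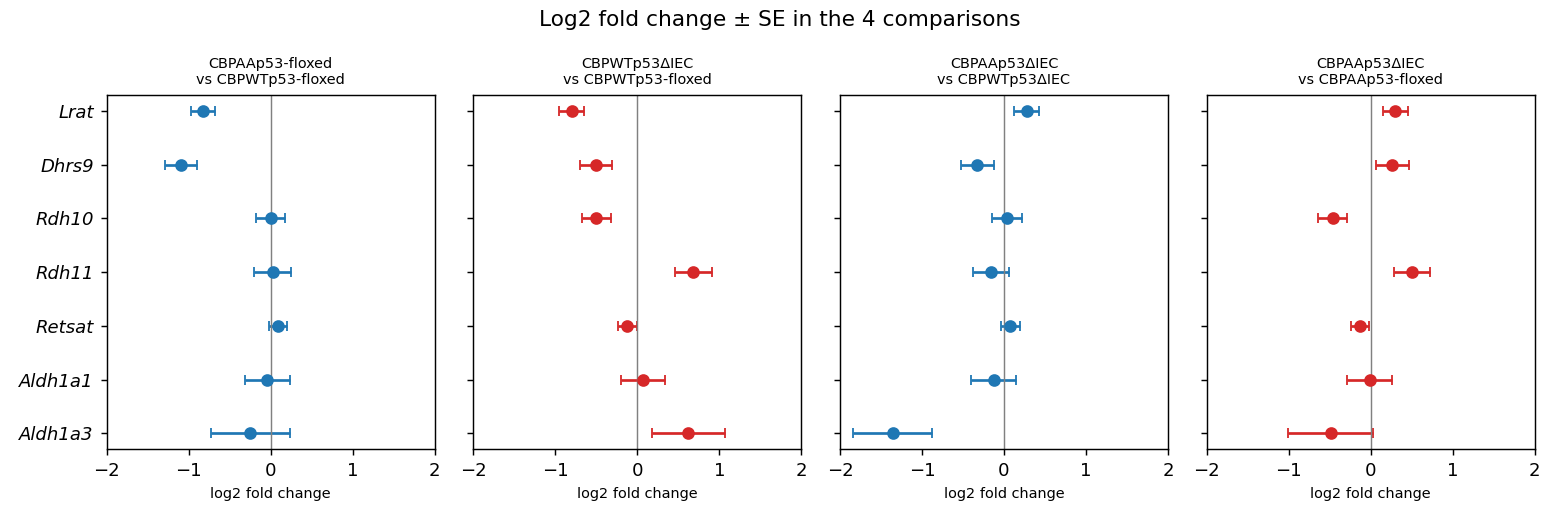
Log2 fold change with SE (bars) from edgeR for 7 of the genes in 4 comparisons; Rbp7 and Rarb are left out for their low counts. Lrat and Dhrs9 lie at -0.82 and -1.09 in the first panel and at 0.28 and -0.32 in the third.

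Of 62 other pathway genes, 36 could be tested. None of the 36 passed in CBPAAp53-floxed vs. CBPWTp53-floxed, where 0% of all genes did (edgeR), and DESeq2 called 0 of the 36. Their median log2 difference there was 0.06 beside 0.01 for all genes. Of the 36, 4 had an unadjusted p under 0.05, as did 1174 of all 14610 genes tested. In CBPWTp53ΔIEC vs. CBPWTp53-floxed, 4 of the 36 passed, 2 in each direction, beside 3.15% of all genes tested (460 of 14610). The median of the 36 was 0.10. DESeq2 called 5 pathway genes, with Rdh16 in addition, beside 863 of all genes in its own fit. By role, 1 of 7 tested retinol binding and uptake genes, 1 of 3 carotenoid genes, 1 of 13 retinol and retinal oxidoreductases and 1 of 2 retinoic acid response genes passed, and none of 5 ester genes, 5 nuclear receptors or 1 retinal oxidising gene did. The 3 Cyp26 genes of retinoic acid breakdown had too few reads to be tested. Tgm2, a transglutaminase that retinoic acid induces, rose by 1.49 ± 0.32 on the log2 scale (adjusted p = 0.0360, edgeR), from 28.7, 19.2 and 25.3 to 107, 44.3 and 54.2 CPM. Without CBPWTp53ΔIEC replicate 1, the library at 107 CPM, the Tgm2 difference was 1.01 (adjusted p = 0.0225, edgeR). Fabp5, which binds fatty acids and retinoic acid, rose by 1.23 ± 0.31 (adjusted p = 0.0463, edgeR), from 3.41, 2.59 and 2.61 to 6.35, 7.80 and 5.89 CPM. Bco2, a carotenoid cleavage enzyme, fell by 0.65 ± 0.16 on the log2 scale (adjusted p = 0.0406, edgeR), from 21.7, 24.5 and 26.0 to 18.4, 15.5 and 12.2 CPM. Adh1 fell by 0.64 ± 0.16 on the log2 scale (adjusted p = 0.0448, edgeR), from 358, 401 and 380 to 240.0, 278.1 and 215 CPM. In CBPAAp53ΔIEC vs. CBPAAp53-floxed, where none of these 4 passed, the log2 difference was 0.08 ± 0.31 for Tgm2 and 0.65 ± 0.31 for Fabp5. There it was -0.23 ± 0.15 for Bco2 and -0.22 ± 0.16 for Adh1.

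Those 4 calls were close to the threshold. They remained the same 4 genes without CBPWTp53ΔIEC replicate 1, and 0 were left without CBPWTp53ΔIEC replicate 2 or 3, without any 1 of the CBPWTp53-floxed libraries, or without CBPAAp53-floxed replicate 3. The last of these libraries is not part of the comparison and acts only through the fit shared by all groups. The share of all genes that passed in these refits was not counted, so a general loss of calls cannot be told apart from a loss in these genes. Exons of Tgm2 overlap Rprd1b on the other strand, and models on the other strand overlap Bco2 and Adh1. Of the 50-base stretches, 18.7% of Tgm2, 5.65% of Bco2, 5.48% of Fabp5 and 2.11% of Adh1 occur in other transcripts. All 15 proliferation markers were higher in this comparison too. Of them, 13 passed the cutoff, and 15 did without CBPWTp53ΔIEC replicate 1. The part of these markers in the 4 calls was not tested. No pathway gene passed in CBPAAp53ΔIEC vs. CBPWTp53ΔIEC or CBPAAp53ΔIEC vs. CBPAAp53-floxed (2 at an unadjusted p under 0.05 in each, and none by DESeq2). None passed for the interaction of CBP genotype and p53 deletion (3 at an unadjusted p under 0.05, none by DESeq2), for which 0.00684% of all genes passed. Of all genes, DESeq2 called 1 in CBPAAp53ΔIEC vs. CBPWTp53ΔIEC, 73 in CBPAAp53ΔIEC vs. CBPAAp53-floxed and 30 for the interaction.

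**Figure D5:**
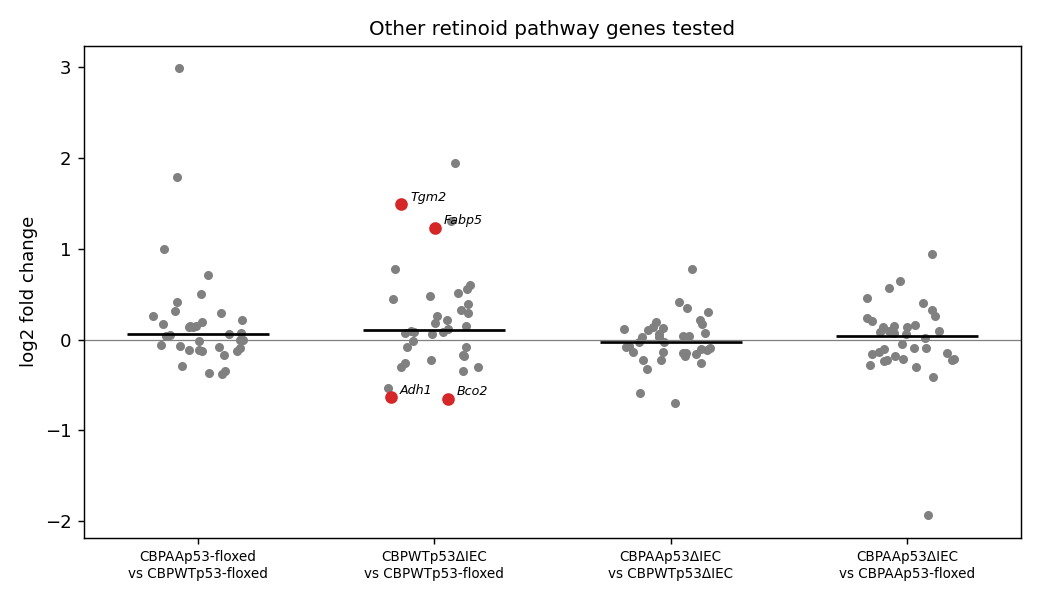
Log2 fold change of the 36 tested pathway genes outside the set in 4 comparisons; black lines are medians and red points passed the cutoff. The 4 red points, Tgm2, Fabp5, Adh1 and Bco2, are in CBPWTp53ΔIEC vs. CBPWTp53-floxed.

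Transcripts with the most similar pattern over the 12 libraries were ranked by Pearson's r of log2 CPM, as a description. Those most like Lrat were Ncoa4 (0.947), Ppara (0.914) and 1600012H06Rik (0.911). For Dhrs9 they were Egfr (0.880), Rnf150 (0.870) and Galnt10 (0.868), and for Rbp7 they were Rnd2 (0.961), Sec14l2 (0.948) and Upk1b (0.944). The points share groups and libraries, and each list was taken from 14610 genes.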

How the data were processed

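The authors deposited 1 table with raw read counts and TPM per gene and library, and with their own log2 fold changes and p-values for 5 comparisons, which were not used. Per the submitters' processing notes, reads were processed with fastp 0.20.0, FastQC 0.11.9, HISAT2 2.1.0, SAMtools 1.9 and featureCounts of Subread 2.0.1 on GRCm38. The kit was stranded, but whether counting used strand is not given in the sources used here. The deposited counts were tested and the deposited TPM served for levels between genes. After edgeR's default expression filter (10 counts), 14610 genes of all 12 libraries entered its robust quasi-likelihood model (edgeR 4.0.16, R 4.3.3) with TMM factors and a term per group, with Benjamini-Hochberg adjustment over all of them. The cutoff was the study's, adjusted p under 0.05 and log2 fold change over 0.5 in size. SE was the log2 fold change divided by the root of F. TPM and TMM-scaled CPM differed by a median log2 shift of -0.12 in CBPAAp53-floxed vs. CBPWTp53-floxed and 0.13 in CBPAAp53ΔIEC vs. CBPAAp53-floxed. Few-read genes were given as ratios of reads with exact Clopper-Pearson 95% intervals. Replicates are separate mice.

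The members and lists were chosen with earlier results of these data known. Tests planned for Lrat and Dhrs9 in CBPAAp53ΔIEC vs. CBPAAp53-floxed and for Rbp7 in CBPAAp53ΔIEC vs. CBPWTp53ΔIEC were dropped, since they used libraries that chose these genes. Named genes were the 9 members, pathway genes called in a comparison, the 10 pathway genes of highest mean TPM, the 3 most similar genes for Lrat, Dhrs9 and Rbp7, and Trp53 and Crebbp. The alternatives were DESeq2 1.42.0, its size factors in edgeR, no filter, at least 10 counts in every library, the 2 groups alone, the replicate number as a block, no fold cutoff, each library left out, and 1 setting with 2 libraries left out. The edgeR script was tested on simulated data. Figures were drawn with matplotlib 3.10.9.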

Additional observations from a re-analysis of the deposited data

How the results depend on the processing

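Of 595 log2 differences of members recomputed under alternatives, 575 kept their direction and side of the cutoff or moved by less than the spread between mice. The other pathway genes called in CBPWTp53ΔIEC vs. CBPWTp53-floxed (4) numbered 0 with the replicate number as a block and 0 to 4 with 1 library left out. In CBPAAp53ΔIEC vs. CBPAAp53-floxed their count of 0 became 0 to 1 with 1 library left out (Fabp5, without CBPAAp53ΔIEC replicate 3). It became 2 (Fabp5 and Rdh16f2) with both libraries of low proliferation marker sum left out, beside 1205 of all 14844 genes tested (8.12%). The share of all genes that passed with 1 library left out was not counted.

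Differences near 0 that no setting called changed sign. In CBPAAp53ΔIEC vs. CBPAAp53-floxed, Aldh1a1 was 0.00633 with the block and -0.18 to 0.19 with 1 library left out. In CBPAAp53ΔIEC vs. CBPWTp53ΔIEC, leaving out 1 library gave -0.34 to 0.24 for Aldh1a1, -0.17 to 0.25 for Rdh10, -0.33 to 0.0547 for Rdh11 and -0.0128 to 0.14 for Retsat, and leaving out both gave 0.0789 for Aldh1a1 and -0.0797 for Retsat. The replicate numbers did not pair the samples: deviations from group means correlated between -0.53 and 0.55 for the same number and between -0.66 and 0.64 for other numbers. Depth limited Rbp7, Aldh1a3 and Rarb, with at most 24, 22 and 8 reads in a library.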
